A study of Homo sapiens with 4 samples.

Results

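The 32 genes described here encode the proton pump of the lysosome, 10 of its digestive enzymes, 5 proteins of its membrane and cholesterol handling, and TFEB and TFE3, 2 factors that switch lysosome genes on. They are the rows of the deposited table whose gene name is on a list made for this account, 32 of 28482 genes, and 31 of them passed the expression filter of 1 CPM (counts scaled to a common library total) in at least 2 libraries. RNA was sequenced in K562/G01, an imatinib-resistant derivative of the K562 line, established from a chronic myeloid leukemia and driven by the kinase BCR-ABL1. All cells carried an integrated lentiviral hairpin, and the groups were TCF7 knockdown with 1 µM imatinib for 48 hours, scramble hairpin with the same imatinib treatment, TCF7 knockdown without imatinib, and scramble hairpin without imatinib, with 1 library each. TCF7 is a transcription factor of the Wnt pathway and imatinib inhibits BCR-ABL1. The labels do not say how many hairpins or clones were used.

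The vacuolar ATPase is a rotary pump: its V1 sector hydrolyses ATP in the cytosol and its V0 sector carries protons across the membrane, which acidifies the lysosome. Cathepsins and lysosomal glycosidases work at that low pH, and the membrane proteins LAMP1 and LAMP2, the calcium channel MCOLN1 and the cholesterol carriers NPC1 and NPC2 line or serve the same compartment. TFEB and TFE3 are held in the cytosol by mTORC1 and, once released, bind an E-box with the letters CACGTG in the promoters of many of these genes.

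In short, most of these transcripts differed little between the libraries. With imatinib, taken over both hairpins, 8 of the 31 tested genes rose and 1 fell in edgeR's quasi-likelihood test (adjusted p under 0.05). With TCF7 knockdown, taken over both drug states, CTSB rose and 0 genes fell. Among all 13296 tested genes, 13.8% were called higher and 7.08% lower with imatinib, and 3.8% higher and 3.34% lower with knockdown. The members' shares of calls were 8 of 31 against 13.8% and 1 of 31 against 7.08% for imatinib, and 1 of 31 against 3.8% and 0 of 31 against 3.34% for knockdown. The share of knockdown calls was thus near the background. The imatinib ratios moved with GC content, as described below. With GC content and length as offsets, edgeR called 4 genes higher and 1 lower with imatinib, beside 2.15% and 2.26% of all tested genes. DESeq2, without offsets, called 3 higher and 0 lower with imatinib, beside 5.73% and 1.81%. Both comparisons use the same 4 libraries and lean on each of them. Without the term for the other factor edgeR called 0 of the 31 genes in either comparison. In such fits with 1 library left out, the imatinib count was 3 without scramble cells with imatinib and 0 without each of the other 3. The knockdown count was 4 without knockdown cells and 0 without each of the other 3.

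Totals of the deposited counts lay between 30634832 and 34095585 per library, and the 32 genes together took 0.239% of the counts in knockdown cells with imatinib, 0.222% in scramble cells with imatinib, 0.225% in knockdown cells and 0.224% in scramble cells. TCF7 had 117 counts in knockdown cells with imatinib against 367 in scramble cells with imatinib, and 78 counts in knockdown cells against 339 in scramble cells, and it fell with knockdown in both pairs (edgeR log2 fold change -1.75 with an SE of 0.206, adjusted p = 1.51e-07). All 9 markers of the K562 line passed the filter, while of 8 macrophage markers only ITGAM and LYZ passed, and the summed level of those 8 was 45.4 CPM in knockdown cells with imatinib, 41.0 CPM in scramble cells with imatinib, 48.0 CPM in knockdown cells and 38.3 CPM in scramble cells. Of 4 T or B cell markers CD3D passed, with a summed level of 15.1 CPM in knockdown cells with imatinib, 13.99 CPM in scramble cells with imatinib, 16.8 CPM in knockdown cells and 20.8 CPM in scramble cells. Of 5 fibroblast or epithelial markers 4 passed, led by KRT18 and KRT8, and their sum was 492.3 CPM in knockdown cells with imatinib and 454.3 CPM in scramble cells with imatinib, against 385.6 CPM in knockdown cells and 401.4 CPM in scramble cells without it. That sum was higher in both drug libraries, and its part in the imatinib results was not tested. In knockdown against scramble cells, COL1A1 had 32 against 7 counts under imatinib and 42 against 5 without it. ITGAM had 102 against 45 and 113 against 65 counts in that order. LYZ, CD3D, EPCAM, KRT8 and KRT18 differed by smaller ratios between the hairpins. The part of these markers in the knockdown results was not tested. Each group has 1 library, so a ratio of 2 libraries was not replicated, and the 95% interval printed with it spans only the error of counting. The tests set 2 libraries against 2 with the other factor as a term, leaving 1 residual degree of freedom and 33.8 prior degrees of freedom shared across genes. The residual degree of freedom is the difference of the knockdown effect between the 2 drug states. The p-values thus rest on that difference and on spread pooled over genes, and not on replicates of a group. The labels do not say that the cultures were separate. A standing difference between the knockdown and the scramble culture cannot be told apart from an effect of TCF7. In bulk RNA, fewer cells of a type and less RNA per cell cannot be told apart.

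Promoter sequences show which of these genes carry the E-box that TFEB and TFE3 are known to bind. RefSeq (GRCh38.p14) windows from 250 bases before to 50 bases after a gene's start were matched by symbol for 25 of the 32 genes, with 30 windows. CACGTG, which reads the same on both strands, was in 8 of the 30 windows (26.7%), against 2548 of 35116 windows of all genes (7.26%). The longer TCACGTGA, which contains CACGTG and is also its own reverse complement, was in 6 of the 30 (20.0%), against 344 of all windows (0.98%). The 8 genes were ATP6V0B, ATP6V0D1, ATP6V1G1, CTSA, CTSD, GAA, LAMP1 and MCOLN1. The bases just before the start are printed for the 4 of them that rose with imatinib and for 2 that were not called, LAMP1 with the most E-boxes and ATP6V1G1 with the lowest GC content. Capitals mark CACGTG.
ATP6V0B, chr1:43974860-43974959, plus strand: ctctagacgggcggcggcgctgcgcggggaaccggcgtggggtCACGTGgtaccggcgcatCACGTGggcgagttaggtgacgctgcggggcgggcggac
CTSD, chr11:1763928-1764027, minus strand: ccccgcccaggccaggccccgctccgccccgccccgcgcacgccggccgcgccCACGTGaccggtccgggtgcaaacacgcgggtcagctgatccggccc
GAA, chr17:80101481-80101580, plus strand: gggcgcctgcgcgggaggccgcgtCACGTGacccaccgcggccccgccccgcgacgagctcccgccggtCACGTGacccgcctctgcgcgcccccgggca
MCOLN1, chr19:7522524-7522623, plus strand: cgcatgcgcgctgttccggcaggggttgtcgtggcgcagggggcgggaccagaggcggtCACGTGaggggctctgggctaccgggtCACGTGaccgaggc
LAMP1, chr13:113297039-113297238, plus strand: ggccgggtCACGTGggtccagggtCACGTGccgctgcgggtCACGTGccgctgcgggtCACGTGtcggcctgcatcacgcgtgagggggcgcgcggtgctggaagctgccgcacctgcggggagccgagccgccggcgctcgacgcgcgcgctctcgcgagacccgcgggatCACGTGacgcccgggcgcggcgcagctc
ATP6V1G1, chr9:114587669-114587768, plus strand: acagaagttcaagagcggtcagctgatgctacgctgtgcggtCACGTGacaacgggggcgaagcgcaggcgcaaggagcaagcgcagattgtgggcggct
The E-boxes of ATP6V0B began 57 and 39 bases before the start, that of CTSD 47 bases before it, those of GAA 76 and 31 bases, and those of MCOLN1 41 and 14 bases. LAMP1 held 6 in its window, 5 of them in the 200 bases printed, and ATP6V1G1 held 1 at 58 bases. A match of these letters is a description of the sequence and not a sign that a factor was bound in these cells.

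**Figure D1:**
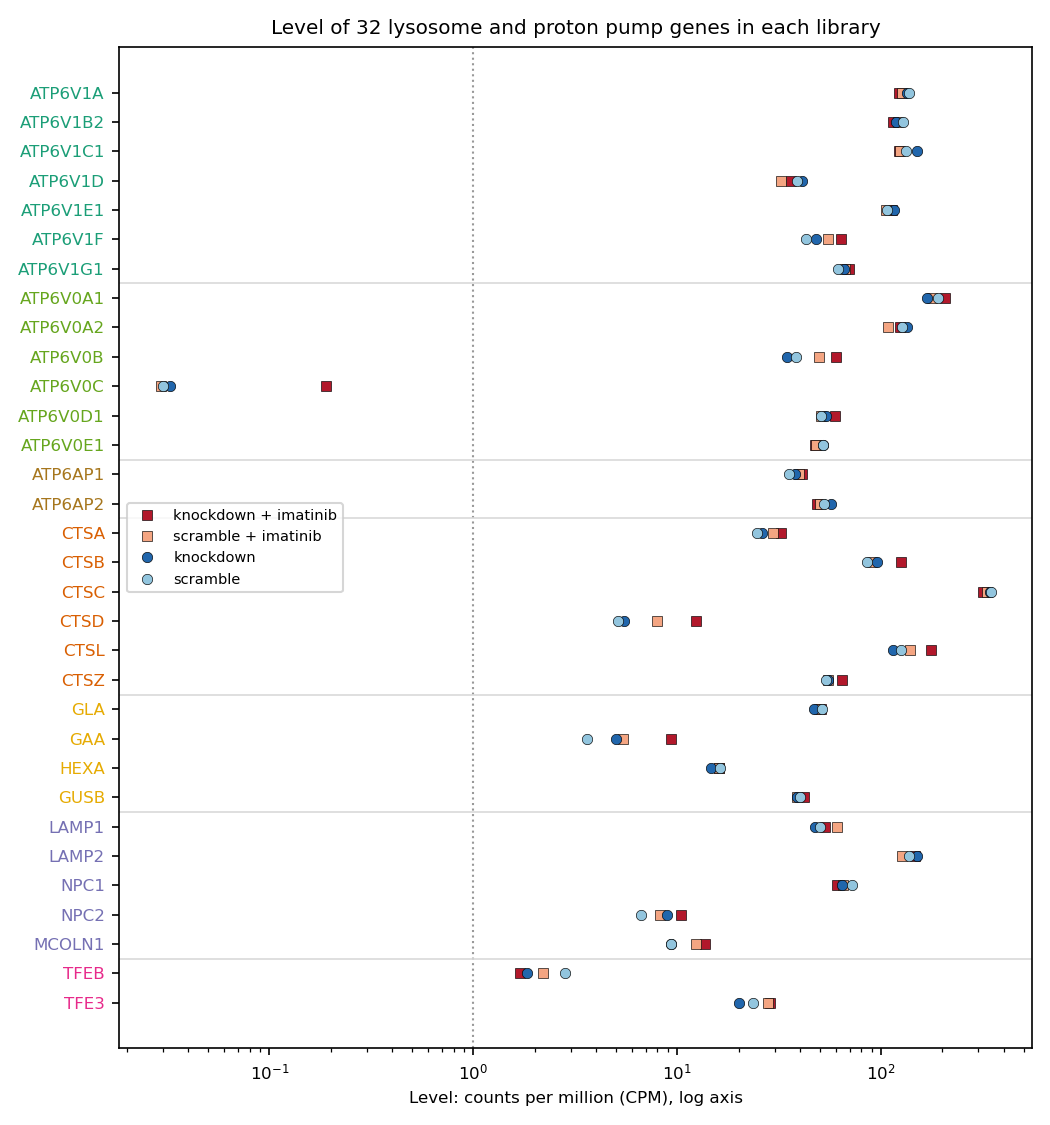
Level of each of the 32 genes in CPM (log axis), with 1 point per library: squares are libraries with imatinib and circles without, red and orange-pink for knockdown and scramble with imatinib, dark and light blue for knockdown and scramble without it. Gene names are coloured by role, the dotted line is the filter at 1 CPM, and ATP6V0C alone lies below it.

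Of the 2 factors, TFE3 was the more abundant. TFE3 (chromosome X, 49028726 to 49043486, minus strand, GRCh38) had 28.6 CPM in knockdown cells with imatinib and 27.9 CPM in scramble cells with imatinib, against 20.0 CPM in knockdown cells and 23.5 CPM in scramble cells without it. Both libraries with imatinib thus lay above both without it, and TFE3 rose with imatinib (log2 fold change 0.37, SE 0.115, edgeR adjusted p = 0.0207, higher in 2 of 2 pairs). TFEB was near the filter, at 1.70 CPM in knockdown cells with imatinib, 2.20 CPM in scramble cells with imatinib, 1.83 CPM in knockdown cells and 2.81 CPM in scramble cells, from 54, 75, 56 and 93 counts in that order. It was lower in both knockdown libraries than in both scramble libraries, but passed neither test (edgeR adjusted p = 0.471 for knockdown and 0.644 for imatinib). Per exon length, TFE3 was also above TFEB in every library, at 6.68 against 0.30 on the deposited FPKM scale in knockdown cells with imatinib and 5.49 against 0.50 in scramble cells.

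The V1 sector holds the catalytic subunit ATP6V1A and its partner ATP6V1B2. It also holds the stalk subunits ATP6V1C1, ATP6V1E1 and ATP6V1G1, and ATP6V1D and ATP6V1F of the central rotor. All 7 were expressed, between 32.2 CPM (ATP6V1D in scramble cells with imatinib) and 149.7 CPM (ATP6V1C1 in knockdown cells). Per exon length, ATP6V1F was the highest of the pump genes in every library, from 54.1 to 80.6 on the deposited FPKM scale, followed by ATP6V1G1 at 47.3 to 53.1 and ATP6V1E1 at 32.9 to 36.1, and these 3 ranges did not overlap one another. The catalytic subunit ATP6V1A lay at 23.8 to 26.8 and its partner ATP6V1B2 at 14.6 to 16.4 on the same scale.

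With imatinib, 1 V1 gene rose and 1 fell. ATP6V1F (chromosome 7, 128862826 to 128865844, plus strand, GRCh38) had 63.6 CPM in knockdown cells with imatinib and 55.1 CPM in scramble cells with imatinib, against 48.2 CPM in knockdown cells and 42.7 CPM in scramble cells without it. Both drug libraries lay above both others, and the log2 ratio was 0.40 in knockdown cells (counting interval 0.30 to 0.49) and 0.36 in scramble cells (0.26 to 0.46). ATP6V1F rose with imatinib (log2 fold change 0.38, SE 0.0893, edgeR adjusted p = 0.0027). ATP6V1C1, on chromosome 8, had 122.7 CPM in knockdown cells with imatinib and 123.2 CPM in scramble cells with imatinib, against 149.7 CPM in knockdown cells and 132.3 CPM in scramble cells without it. The 2 drug libraries were nearly equal and below both others, and ATP6V1C1 fell with imatinib in both pairs (edgeR log2 fold change -0.21 with an SE of 0.0748, adjusted p = 0.0472). Without the library of knockdown cells, in a fit that also dropped the knockdown term, the value was -0.11. The other 5 V1 genes were not called, with log2 ratios of imatinib over none between -0.18 (ATP6V1D) and 0.07 (ATP6V1G1) in knockdown cells and between -0.29 (ATP6V1D) and 0.10 (ATP6V1G1) in scramble cells.

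**Figure D2:**
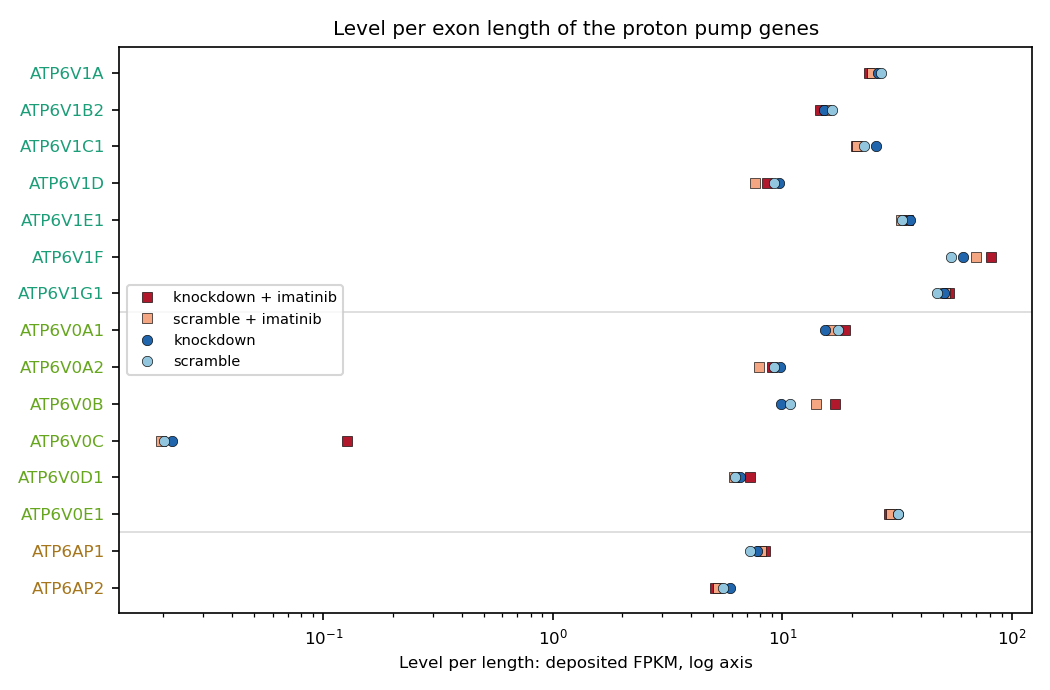
Level per exon length of the 15 pump genes on the deposited FPKM scale (log axis), 1 point per library, with squares for libraries with imatinib and circles for those without. ATP6V1F is highest, at 54.1 to 80.6, and ATP6V0C is lowest.

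The V0 sector was represented by the large a subunits ATP6V0A1 and ATP6V0A2, the proteolipids ATP6V0B and ATP6V0C that form the rotor ring, and ATP6V0D1 and ATP6V0E1. ATP6V0B (chromosome 1, 43974487 to 43978295, plus strand) had 59.9 CPM in knockdown cells with imatinib and 49.5 CPM in scramble cells with imatinib, against 34.7 CPM in knockdown cells and 38.1 CPM in scramble cells without it. Both drug libraries lay above both others, by a log2 ratio of 0.78 in knockdown cells (0.67 to 0.89) and 0.36 in scramble cells (0.26 to 0.47). ATP6V0B rose with imatinib (log2 fold change 0.57, SE 0.10, edgeR adjusted p = 0.000104), the smallest p of the 31 genes in that comparison. Its promoter is one of those with E-boxes printed above.

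ATP6V0A1 had 205.1 CPM in knockdown cells with imatinib, 177.7 CPM in scramble cells with imatinib, 167.5 CPM in knockdown cells and 191.0 CPM in scramble cells. The knockdown library was thus the higher one under imatinib (log2 ratio of knockdown over scramble 0.23, 0.18 to 0.28) and the lower one without it (-0.18, -0.23 to -0.13), and the gene was called in neither comparison. ATP6V0A2, ATP6V0D1 and ATP6V0E1 were not called either, with log2 ratios of imatinib over none of -0.11, 0.14 and -0.13 in knockdown cells and -0.23, -0.03 and -0.13 in scramble cells. ATP6V0C, the main ring proteolipid, had 6 counts in knockdown cells with imatinib and 1 count in each other library. In GENCODE release 29, 72.1% of its exon bases are shared with other genes on the same strand, and how reads in shared exons were counted is not given in the sources used here, so its level cannot be read from these counts. The accessory subunits ATP6AP1 and ATP6AP2, which help to assemble and sort the pump, ranged from 35.2 to 41.1 CPM and from 48.6 to 56.5 CPM and were not called.

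Of the 6 proteases, 3 rose with imatinib and 0 fell. CTSD (chromosome 11, 1752752 to 1764573, minus strand) encodes the aspartic protease cathepsin D. It had 12.4 CPM in knockdown cells with imatinib and 7.95 CPM in scramble cells with imatinib, against 5.48 CPM in knockdown cells and 5.10 CPM in scramble cells without it. The drug libraries were both above the others, and the log2 ratio was 1.16 in knockdown cells (0.90 to 1.44) and 0.62 in scramble cells (0.34 to 0.91). CTSD rose with imatinib (log2 fold change 0.90, SE 0.19, edgeR adjusted p = 0.000846). Without the library of knockdown cells with imatinib, in a fit that also dropped the knockdown term, the value was 0.58. In GENCODE 29, 41.7% of its exon bases lie in another gene on the same strand, which had 15, 1, 5 and 1 counts in knockdown cells with imatinib, scramble cells with imatinib, knockdown cells and scramble cells, so its level is uncertain.

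CTSL (chromosome 9, 87725519 to 87731393, plus strand), the cysteine protease cathepsin L, had 175.1 CPM in knockdown cells with imatinib and 138.4 CPM in scramble cells with imatinib, against 113.8 CPM in knockdown cells and 124.5 CPM in scramble cells without it. It rose with imatinib (log2 fold change 0.38, SE 0.0839, edgeR adjusted p = 0.00142), with a log2 ratio of 0.62 in knockdown cells (0.56 to 0.68) and 0.14 in scramble cells (0.08 to 0.20). CTSB, the cysteine protease cathepsin B, on chromosome 8, had 125.7 CPM in knockdown cells with imatinib and 90.2 CPM in scramble cells with imatinib, against 94.96 CPM in knockdown cells and 85.4 CPM in scramble cells without it. The library with both hairpin and drug stood above the other 3, and scramble cells with imatinib lay below knockdown cells without it. CTSB rose with imatinib (log2 fold change 0.23, SE 0.0815, edgeR adjusted p = 0.0385), with a log2 ratio of 0.40 (0.33 to 0.47) in knockdown cells and 0.06 (-0.01 to 0.14) in scramble cells. Without the library of knockdown cells with imatinib, the imatinib log2 fold change was -0.01 for CTSB and 0.20 for CTSL, in a fit that also dropped the knockdown term. Without that of scramble cells with imatinib it was 0.48 for CTSB.

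The other proteases were not called. CTSC, the dipeptidyl peptidase cathepsin C, was the most abundant of the 32 genes in CPM, at 316.7 to 344.1. CTSA, which protects other lysosomal enzymes, ranged from 24.6 to 32.1 CPM and was called with a filter at 5 CPM (edgeR adjusted p = 0.0382), and CTSZ, a carboxypeptidase, from 53.8 to 64.4 CPM. On the deposited FPKM scale, per exon length, CTSL was highest of the 6, at 48.1 to 74.0, above CTSC at 27.7 to 30.1, with no overlap.

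Of 4 glycosidases, GAA, the acid glucosidase that degrades glycogen, rose with imatinib and the others were not called. GAA (chromosome 17, 80101556 to 80119879, plus strand) had 9.36 CPM in knockdown cells with imatinib and 5.43 CPM in scramble cells with imatinib, against 4.99 CPM in knockdown cells and 3.59 CPM in scramble cells without it. The drug libraries lay above both others, with a log2 fold change of 0.75, SE 0.212 and edgeR adjusted p = 0.0111 (higher in 2 of 2 pairs). The log2 ratio of imatinib over none was 0.89 in knockdown cells (0.62 to 1.19) and 0.57 in scramble cells (0.24 to 0.93). Without the library of knockdown cells with imatinib, in a fit that also dropped the knockdown term, the log2 fold change of GAA was 0.33, and without that of scramble cells with imatinib it was 1.13. GLA, HEXA and GUSB, which remove galactose, hexosamine and glucuronic acid, stayed between 0.11 and 0.12 in knockdown cells and between -0.06 and -0.02 in scramble cells on the same scale. GUSB has pseudogene copies, so its counts may be split.

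Among the membrane and cholesterol genes, MCOLN1 rose with imatinib. MCOLN1 (chromosome 19, 7522626 to 7534009, plus strand), the calcium channel, had 13.7 CPM in knockdown cells with imatinib and 12.4 CPM in scramble cells with imatinib, against 9.34 CPM in knockdown cells and 9.35 CPM in scramble cells without it. The libraries fell into drug and no drug with little spread within each, and the log2 fold change was 0.47 (SE 0.156, edgeR adjusted p = 0.0298, higher in 2 of 2 pairs). LAMP1 had 53.0 CPM in knockdown cells with imatinib and 60.7 CPM in scramble cells with imatinib, against 47.1 CPM in knockdown cells and 50.1 CPM in scramble cells without it. Both drug libraries were the higher ones, but LAMP1 missed the threshold (log2 fold change 0.21, edgeR adjusted p = 0.0837), which it passed with a filter at 5 CPM (edgeR adjusted p = 0.0474). LAMP2 had 146.0 CPM in knockdown cells with imatinib and 126.3 CPM in scramble cells with imatinib, against 150.7 CPM in knockdown cells and 136.8 CPM in scramble cells without it. Its 2 knockdown libraries lay above its 2 scramble libraries, and for imatinib its edgeR adjusted p was 0.404. NPC1 ranged from 60.6 to 71.9 CPM and NPC2 from 6.61 to 10.5 CPM, and neither was called.

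**Figure D3:**
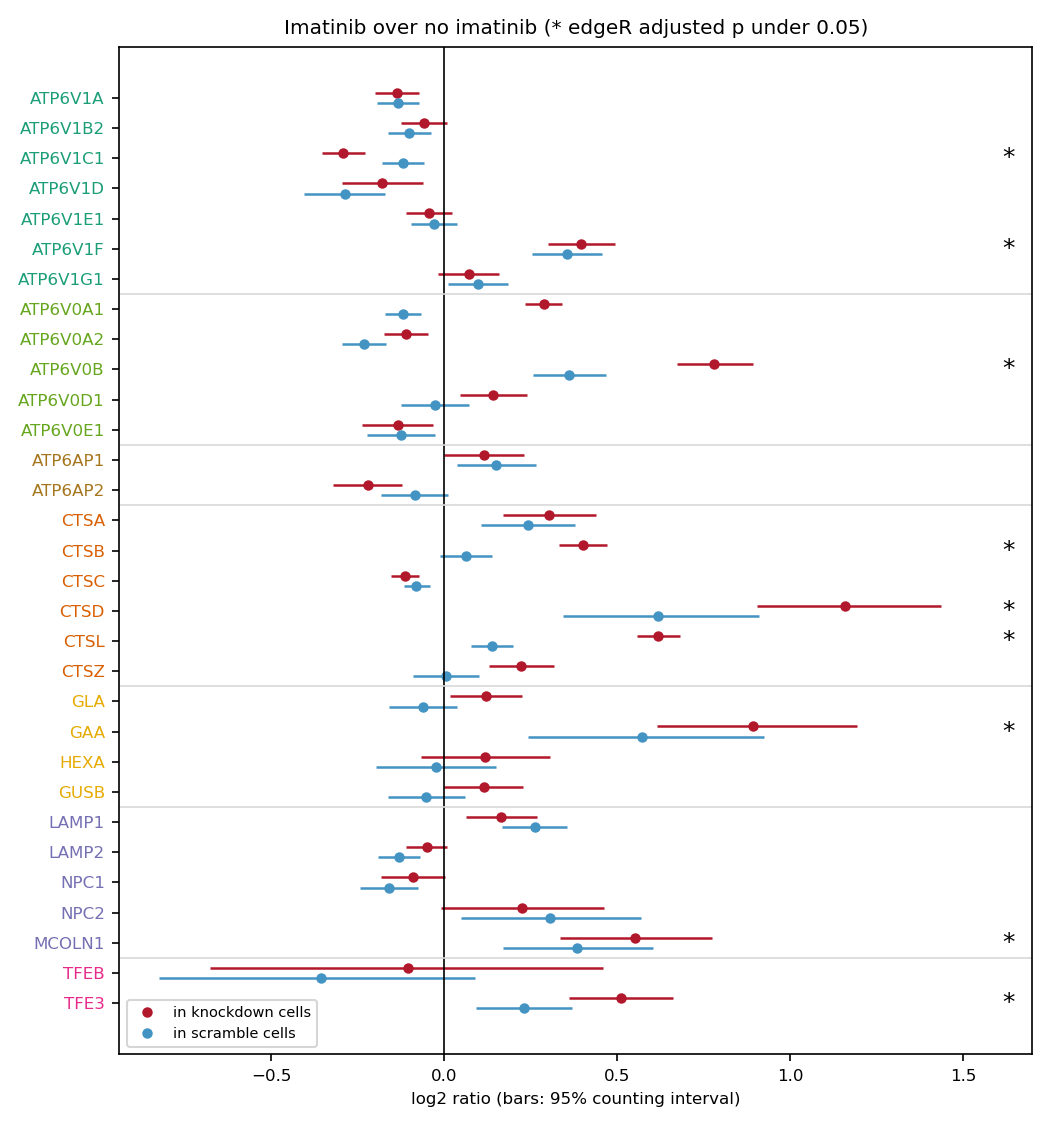
Log2 ratio of imatinib over no imatinib for the 31 tested genes, in knockdown cells (red) and in scramble cells (blue), with 95% counting intervals as bars and gene names coloured by role. Asterisks mark the 9 genes called by edgeR, among them CTSD at 1.16 in knockdown cells and 0.62 in scramble cells.

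By role, the median log2 ratio of imatinib over none over the 14 tested pump genes was -0.05 in knockdown cells and -0.09 in scramble cells, with 2 genes up and 1 down in the test. Over the 15 enzymes and membrane proteins it was 0.22 in knockdown cells and 0.06 in scramble cells, with 5 up and 0 down. The median of all tested genes was 0.01 in knockdown cells and -0.01 in scramble cells. At a log2 ratio of 0.32 or more in size, 8 of the 31 genes were higher and 0 lower in knockdown cells, where 25.1% of all tested genes were higher and 12.9% lower. In scramble cells 5 were higher and 1 lower, where 14.6% of all tested genes were higher and 7.8% lower. The difference between the 2 roles was not tested.

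GC content moved with these ratios. Over the 10095 genes that averaged at least 5 CPM, the Spearman correlation of the imatinib log2 ratio with the GC content of the longest transcript was 0.75 in knockdown cells and 0.68 in scramble cells, as a description over genes that share 2 libraries. Over the 31 genes it was 0.76 in knockdown cells and 0.61 in scramble cells. The median GC content was 52.5% for enzymes and membrane proteins, 44.7% for pump genes and 47.3% for all tested genes. With each library's smooth trend over GC content and length entered as offsets, edgeR called 4 of the 31 genes higher with imatinib and 1 lower, where 2.15% of all tested genes were higher and 2.26% lower. ATP6V0B (log2 fold change 0.33, adjusted p = 0.00307), CTSL (0.26, 0.0028) and ATP6V1F (0.25, 0.0392) were called higher in this edgeR fit as well, and the stalk subunit ATP6V1G1 (0.23, 0.0422) was added. ATP6V0D1 was called lower in it (log2 fold change -0.24, edgeR adjusted p = 0.0467). TFE3 (0.02), MCOLN1 (0.04), ATP6V1C1 (-0.05), CTSB (0.10), GAA (0.23) and CTSD (0.39) had smaller log2 fold changes with these offsets and were not called by edgeR, with adjusted p between 0.218 and 0.963. With the trend removed, the median log2 ratio was 0.093 for the enzymes and membrane proteins against -0.004 for the pump genes in knockdown cells, and 0.004 against 0.007 in scramble cells. DESeq2, without offsets, called 3 of the 31 higher with imatinib (ATP6V0B, CTSD and ATP6V1F) and 0 lower. It called 5.73% of all tested genes higher and 1.81% lower. For GAA and TFEB it gave no adjusted p with imatinib, and genes without one count as not called in these shares. The part of GC content in the imatinib result was not tested.

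**Figure D4:**
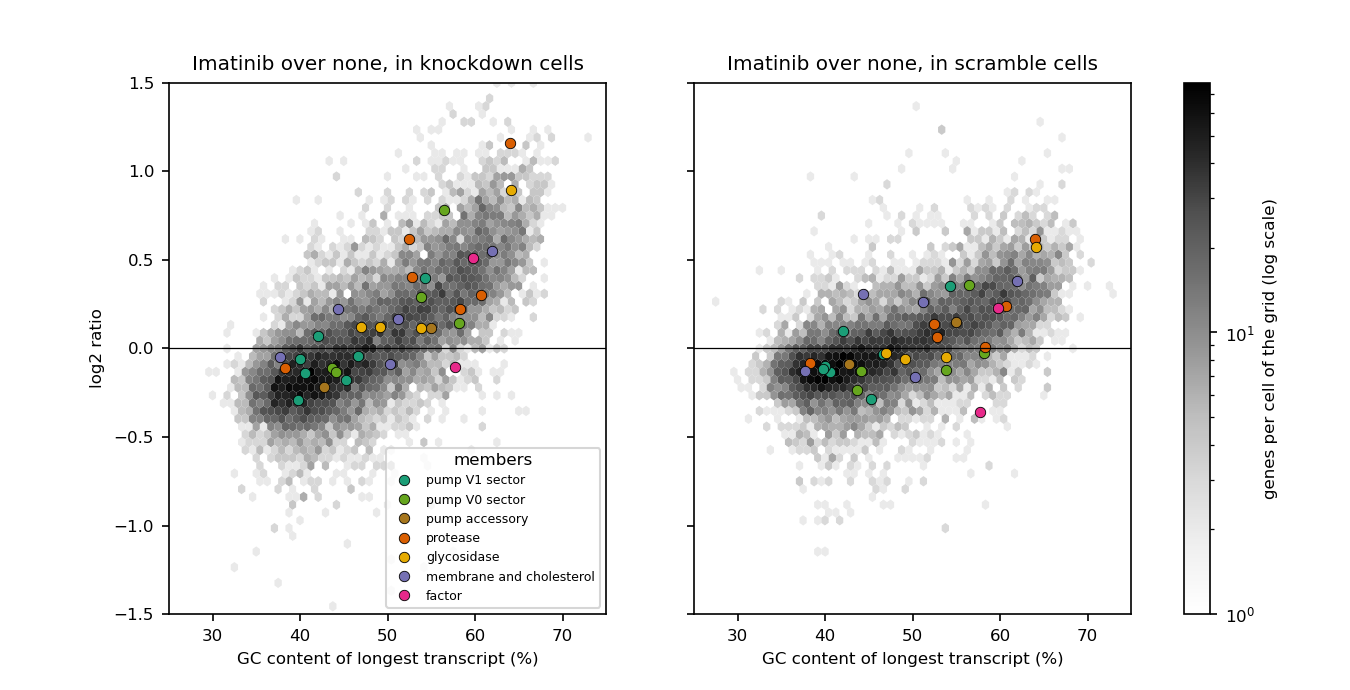
Log2 ratio of imatinib over no imatinib against the GC content of the longest transcript (%), in knockdown cells (left) and scramble cells (right). Grey cells count all tested genes with a known GC content, on a log scale within the axes drawn. Coloured points are the 31 genes by role, which follow the cloud, with a Spearman correlation of 0.76 on the left and 0.61 on the right.

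Genes with an E-box in their promoter window also had more GC in their transcripts. Their median transcript GC content was 59.4% over 8 genes, against 51.4% over the 16 tested genes whose windows had none. Of the 8, 4 rose with imatinib and 0 fell in edgeR, and of the 16, 3 rose (ATP6V1F, CTSL and TFE3) and 0 fell, beside 13.8% and 7.08% of all genes. The median imatinib log2 ratio of the 8 was 0.43 in knockdown cells and 0.31 in scramble cells, against 0.12 in knockdown cells and -0.06 in scramble cells for the 16. With the GC and length trend removed, it was 0.14 in knockdown cells and 0.18 in scramble cells for the 8, against -0.004 in knockdown cells and -0.04 in scramble cells for the 16. With the offsets, edgeR called 2 of the 8 higher and 1 lower, and 2 of the 16 higher and 0 lower. That fit called 2.15% of all tested genes higher and 2.26% lower. These counts describe a few genes and were not tested.

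The knockdown comparison asks which transcripts differ when TCF7 is reduced, and here it gave 1 call. CTSB stood at 125.7 CPM in knockdown cells against 90.2 CPM in scramble cells under imatinib, and at 94.96 CPM against 85.4 CPM without it. It rose with knockdown (log2 fold change 0.33, SE 0.0815, edgeR adjusted p = 0.00755), with a log2 ratio of 0.50 under imatinib (0.43 to 0.57) and 0.16 without it (0.09 to 0.24). With GC and length offsets its edgeR adjusted p was 8.63e-05. In that fit 4 of the 31 genes were called higher with knockdown (CTSB, GAA, LAMP2 and ATP6V0A2) and 0 lower, where 6.76% of all tested genes were higher and 5.57% lower. Under DESeq2 the adjusted p of CTSB was 0.141 and 0 of the 31 were called, where 0.963% of all tested genes were higher and 1.08% lower. With 1 library left out in turn, in fits without the drug term, CTSB was called without the library of knockdown cells (log2 fold change 0.52) and not without that of knockdown cells with imatinib (0.14), scramble cells with imatinib (0.38) or scramble cells (0.31).

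GAA was close to the threshold, at 9.36 CPM in knockdown cells against 5.43 CPM in scramble cells under imatinib, and 4.99 CPM against 3.59 CPM without it (log2 fold change 0.66, SE 0.212, edgeR adjusted p = 0.0529). It was called with other scalings, filters and the offsets. GAA was not called by DESeq2 (adjusted p = 0.537), by limma on deposited FPKM or by edgeR without the drug term. LAMP2 was higher in the knockdown library of both pairs, at log2 ratios of 0.23 (0.17 to 0.29) under imatinib and 0.15 (0.09 to 0.21) without it, with an edgeR adjusted p of 0.125, or 0.0158 with offsets. LAMP1 lay lower in the knockdown library of both pairs, at -0.18 (-0.27 to -0.08) under imatinib and -0.08 (-0.18 to 0.02) without it (edgeR adjusted p = 0.479). NPC2, which passes cholesterol to NPC1, had log2 ratios of 0.36 (0.13 to 0.59) under imatinib and 0.44 (0.18 to 0.70) without it, and an edgeR adjusted p of 0.186.

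Of the 14 tested pump genes, 0 were called for knockdown, 1 had an unadjusted p under 0.05 in edgeR and 0 were called by DESeq2. Of all 13296 tested genes, 2577 had an unadjusted p under 0.05 in edgeR for knockdown. With GC and length offsets edgeR called ATP6V0A2 higher (adjusted p = 0.033). In neither pair did any pump gene reach a log2 ratio of 0.32 in size. Their median log2 ratio of knockdown over scramble was 0.09 both under imatinib and without it, against 0.02 under imatinib and 0.00 without it for all tested genes. The 5 tested V0 genes had a median of 0.23 under imatinib and 0.01 without it. Under imatinib the counting intervals of ATP6V0A1, ATP6V0A2, ATP6V0B and ATP6V0D1 lay above 0. So did those of the V1 genes ATP6V1D, ATP6V1E1 and ATP6V1F. Such intervals span only the error of counting, and the share of all tested genes with intervals above 0 is not given here. With the GC and length trend removed, the V0 medians were 0.162 under imatinib and -0.009 without it. The Spearman correlation of GC content with the knockdown ratio, over the 10095 genes averaging at least 5 CPM, was 0.37 under imatinib and -0.11 without it. Over the 31 genes it was 0.44 under imatinib and -0.12 without it. The part of GC content in the knockdown ratios was not tested. The widest pump ratios were 0.30 for ATP6V0B under imatinib and 0.19 for ATP6V1C1 without it. Of all 31 genes, 5 were higher and 1 lower by 0.32 or more on the log2 scale under imatinib, where 15.3% of all tested genes were higher and 11.3% lower, and 2 were higher and 1 lower without it, where 9.63% were higher and 12.8% lower. For TCF7 itself the ratios were -1.51 under imatinib and -1.97 without it.

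**Figure D5:**
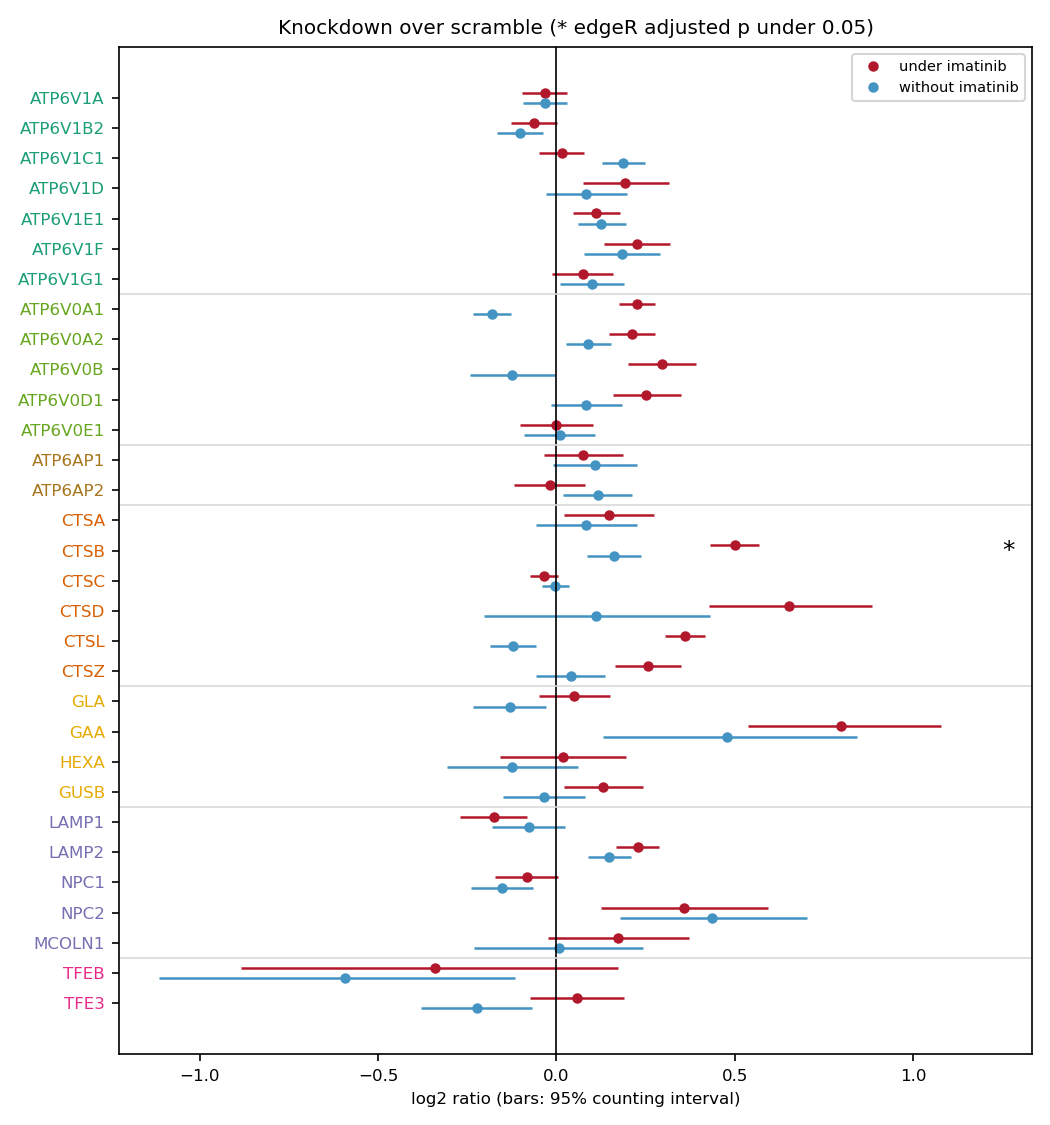
Log2 ratio of TCF7 knockdown over scramble for the 31 tested genes, under imatinib (red) and without it (blue), with 95% counting intervals as bars and gene names coloured by role. The asterisk marks CTSB, at 0.50 under imatinib and 0.16 without it, and no pump gene is beyond 0.30 in size.

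Another 115 genes of the lysosome were taken as a list from general knowledge, and 102 of them passed the filter. With knockdown 13 of these rose and 3 fell, beside 3.8% and 3.34% of all tested genes. Of the pump subunits outside the 32, ATP6V1H is the regulatory subunit H of V1 (chromosome 8, 53715557 to 53843558, minus strand). It had 108.0 CPM in knockdown cells against 154.0 CPM in scramble cells under imatinib, and 117.2 CPM against 166.9 CPM without it. It fell with knockdown by 0.50 on the log2 scale (SE 0.0733, edgeR adjusted p = 1.01e-05), by nearly the same ratio in both pairs (-0.49 under imatinib and -0.50 without it). ARSB, the sulfatase arylsulfatase B, had 6.65 CPM in knockdown cells against 3.78 CPM in scramble cells under imatinib, and 7.87 CPM against 3.23 CPM without it, and it rose (log2 fold change 1.06, SE 0.224, edgeR adjusted p = 0.00172).

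Other enzymes of the list that rose with knockdown were the ganglioside cofactor GM2A (log2 fold change 0.43), the carboxypeptidase SCPEP1 (0.49) and cathepsin S (CTSS, 0.37). ROGDI (0.86) and TMEM9 (0.49), linked to pump assembly and activity, also rose, but 38.3% of the exon bases of ROGDI are shared with another gene on the same strand. The sorting receptor SORT1 (0.34), the endolysosomal channel TPCN1 (0.43) and ZKSCAN3 (0.31), known as a repressor of lysosome and autophagy genes, rose too. LAPTM4B, a lysosomal membrane protein and like ATP6V1H on chromosome 8, fell by 0.39 on the log2 scale. CTSB, on the same chromosome, rose, and the part of position in these calls was not tested. The autophagy receptor SQSTM1 fell by 0.26, a gene named for this comparison after its values were seen. Among the 7 tested autophagy genes of the list, which include SQSTM1, the lowest knockdown ratio was -0.10 under imatinib and -0.52 without it. Any fall of SQSTM1 under imatinib was thus at most 0.10. Without the library of knockdown cells with imatinib, in a fit that also dropped the drug term, the knockdown log2 fold change was 0.33 for ROGDI and 0.27 for TMEM9. Without that of knockdown cells it was 1.31 for ROGDI and 0.19 for CTSS. All these calls are edgeR's at an adjusted p under 0.05.

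With imatinib 14 of the 102 rose and 2 fell, beside 13.8% and 7.08% of all tested genes, which is about the background share of rises. The pump subunit TCIRG1 had 45.2 CPM in knockdown cells with imatinib and 40.3 CPM in scramble cells with imatinib, against 28.3 CPM in knockdown cells and 29.6 CPM in scramble cells without it. It rose with a log2 fold change of 0.55 (SE 0.102, edgeR adjusted p = 0.000204). The lysosomal ion channel TMEM175 (0.74), the chloride transporter CLCN7 (0.47), the cysteine transporter MFSD12 (0.67), the acid phosphatase ACP2 (0.67) and the mannosidase MAN2B1 (0.34) also rose, as did ROGDI (0.73). RPTOR (0.36), MLST8 (0.41) and LAMTOR2 (0.35), which belong to mTORC1 or anchor it at the lysosome, SQSTM1 (0.44) and the tethering subunit VPS18 (0.38) rose as well. Without the library of knockdown cells with imatinib, in a fit that also dropped the knockdown term, the log2 fold change was 0.13 for ROGDI, 0.12 for LAMTOR2, 0.30 for CLCN7 and 0.49 for TMEM175. Without that of scramble cells with imatinib it was 1.253 for ROGDI and 0.59 for LAMTOR2. Without that of knockdown cells it was 0.19 for SQSTM1 and 1.10 for ROGDI, and without that of scramble cells 0.70 for SQSTM1. The 2 that fell, DMXL1 (-0.28), linked to pump assembly, and the membrane protein TMEM106B (-0.25), are named after their values were seen. With GC and length offsets 0 of the 102 were called higher and 2 lower by edgeR (GM2A and VPS11), beside 2.15% and 2.26% of all tested genes. In that fit the fold changes of TCIRG1 (-0.01), CLCN7 (-0.07), MLST8 (-0.11) and VPS18 (-0.01) turned below 0. DESeq2 called TCIRG1, MFSD12, CLCN7, RPTOR and SQSTM1 higher and DMXL1 lower with imatinib. With knockdown it called SORT1 and LAPTM5 higher and ATP6V1H and LAPTM4B lower. For some of the 102, ROGDI among them, it gave no adjusted p with imatinib, and these count as not called.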

How the data were processed

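RNA-seq of 4 K562/G01 libraries, 1 per group, was analysed from 1 table. For every gene and library the authors deposited read counts and FPKM, per the file headers. Ribosomal RNA was removed and a strand-keeping kit was used, per the labels' protocols. The submitters' processing notes name FastQC, HISAT2, HTSeq 0.6.1 and GRCh38; which annotation release and strand setting served for counting is not given in the sources used here. Read counts the authors deposited were tested unchanged. Their deposited FPKM was handled as a score, since 6 genes are negative; for 31 of the 32 genes they equal the count scaled by the library total and the GENCODE 29 exon length (tolerance 0.001). They served for levels per length and for an alternative.

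CPM is the count over the library total. Genes with 1 CPM or more in at least 2 libraries, 13296 in all, were tested with edgeR 4.0.16 (R 4.3.3; quasi-likelihood, TMM, additive design over knockdown and imatinib, Benjamini-Hochberg over all tested genes), after a check on simulated data. For log2 ratios a prior count of 2, scaled to library size, was added to the counts before these were turned into TMM-scaled CPM. Their 95% intervals are exact binomial ones for counting error alone, as reads are not independent draws of molecules. Alternatives were DESeq2 1.42.0 and its size factors, total counts, no filter, a filter at 5 CPM, limma 3.58.1 on log2 of deposited FPKM plus 0.1, GC and length offsets (mgcv 1.9.3; 13255 genes), the fit without the other factor, each library left out, a prior count of 0.5, a 1.5-fold limit and, added after the data were seen, leaving out members with over 10% shared exon bases. Positions are those of GENCODE 29, and promoters those of RefSeq. Values in every library are given for members called in either comparison and for TFEB, TFE3, MCOLN1, LAMP1 and LAMP2, and of the other lysosome genes up to 12 called per comparison with the largest fold change at a mean of 5 CPM or more are named; ATP6V0A1 was described for its values. A gene that this rule takes is not reported here. The members and lists were chosen with earlier results of these data known.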

Additional observations from a re-analysis of the deposited data

Results flagged for a closer look

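For 3 of the 31 tested members the 2 pairs of a comparison lay on opposite sides of 0 with 95% counting intervals that both excluded 0. Other members had ratios of opposite sign with an interval that reached 0, and the difference between the pairs was not tested for any. The lysosome genes outside the members are not covered by this count. ATP6V0A1, the a subunit of the V0 sector, had a log2 ratio of knockdown over scramble of 0.23 under imatinib and -0.18 without it, and of imatinib over none of 0.29 in knockdown cells and -0.12 in scramble cells. With the trend over GC content and length removed these were 0.16 and -0.15 for knockdown, and 0.08 and -0.23 for imatinib. ATP6V0B, the ring proteolipid, had a log2 ratio of knockdown over scramble of 0.30 under imatinib and -0.12 without it (0.18 and -0.11 with the trend removed). CTSL, cathepsin L, had 0.36 under imatinib and -0.12 without it (0.28 and -0.12 with the trend removed). The knockdown and imatinib ratios of ATP6V0A1 come from the same 4 libraries, each group has 1 library, and the counting intervals of these ratios do not cover differences between cultures.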

How the results depend on the processing

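Scaling by DESeq2 size factors or total counts moved the median of all genes by less than 0.1 on the log2 scale. Called genes numbered 949 for knockdown and 2780 for imatinib among all tested genes. DESeq2's test called 272 for knockdown and 1003 for imatinib, GC and length offsets 1634 and 584, and limma on deposited FPKM 195 and 1094; of the imatinib calls, 66.2% were higher in the edgeR test, 76.0% with DESeq2, 48.8% with offsets and 83.8% with limma. Without the other factor 0 were called in either comparison, where edgeR's design with both factors has 2577 genes for knockdown and 4571 for imatinib at an unadjusted p under 0.05. Leaving out 1 library each gave 34 to 759 for knockdown and 0 to 579 for imatinib. The cause of these changes was not tested.

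Of the 31 genes, the count called for knockdown was 1, and became 2 (CTSB and GAA) with DESeq2 size factors, total counts, no filter or the filter at 5 CPM, 4 with offsets, 0 with DESeq2's test, limma or without the other factor, and 0 to 4 with 1 library left out. For imatinib it was 9, and became 11 with the filter at 5 CPM (adding CTSA and LAMP1), 3 with DESeq2's test, 5 with offsets, 3 with limma (ATP6V0B, CTSD and ATP6V1F in both DESeq2 and limma), 0 without the other factor and 0 to 3 with 1 library left out; only leaving out scramble cells with imatinib kept any. At an unadjusted p under 0.05 edgeR had 6 of the 31 for knockdown and 13 for imatinib. Of all 13296 tested genes it had 2577 for knockdown and 4571 for imatinib. CTSB's imatinib log2 fold change was -0.013 without the library of knockdown cells with imatinib and up to 0.479 with another left out. ATP6V1C1 was not called with total counts or no filter, nor CTSB for imatinib with no filter.

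Of the 102 other lysosome genes, 16 were called in each comparison. For knockdown this became 4 with DESeq2's test, 0 without the other factor and 0 to 7 with 1 library left out; for imatinib 6 with DESeq2's test, 2 with offsets, 0 without the other factor and 0 to 2 with 1 library left out. With offsets the imatinib values of TCIRG1 (-0.012), CLCN7 (-0.071), MLST8 (-0.109) and VPS18 (-0.006) reversed. At a limit of 1.5-fold in place of the log2 limit of 0.32, members past it numbered 2 in place of 6 for knockdown under imatinib, 1 in place of 3 without it, 4 in place of 8 for imatinib in knockdown cells and 1 in place of 6 in scramble cells. With the GC and length trend removed, the members' median log2 ratio was 0.079 in place of 0.131 for knockdown under imatinib, 0.067 in place of 0.040 without it, 0.046 in place of 0.119 for imatinib in knockdown cells and 0.004 in place of -0.027 in scramble cells; the other alternatives moved the 4 medians by at most 0.020. Leaving out members with shared exons gave 1 call for knockdown and 8 for imatinib. No paired analysis was possible because the labels carry no replicate numbers; the design with both factors compares libraries within a drug state or a hairpin. Depth limits TFEB, with under 100 counts per library, and ATP6V0C.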
